A study of Mus musculus with 8 samples.

Results

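The genes of mitochondrial fatty acid oxidation and ketone body metabolism were compared between AML12 mouse hepatocytes that had lost VWA8 and wild-type AML12 cells. The list held 35 genes. Each was represented by the probe set that carries its symbol alone, and, where there were several, by the one with the highest mean over all 8 arrays. By this rule 32 of the 35 genes were measured, among 22180 genes in all. Cpt1b and Acsl3 were listed only in probe sets that name several genes, and the level of Acsl1 is not analysed here.

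AML12 is a hepatocyte line established from a mouse that carried a human TGF-alpha transgene. VWA8 is an ATPase that resides in mitochondria. In the 4 knockout cultures, labelled VWA8-null, the gene had been removed with CRISPR/Cas9, and the 4 wild-type cultures were unedited cells of the line. Both genotypes grew in serum-containing medium with insulin, transferrin, selenium and dexamethasone, a synthetic glucocorticoid, were differentiated as separate cultures, and gave total RNA for 1 Affymetrix array per culture. The sources used here do not state the number of knockout clones, and clonal differences cannot be told apart from those of the genotype.

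Fatty acids enter this pathway once an acyl-CoA synthetase has joined them to coenzyme A. The acyl group is moved onto carnitine, carried across the inner mitochondrial membrane, moved back onto coenzyme A and then shortened in repeated rounds of dehydrogenation, hydration, a second dehydrogenation and thiolytic cleavage. Electrons of the opening dehydrogenation pass through the electron transfer flavoprotein to ubiquinone. In liver the acetyl-CoA that results can be turned into ketone bodies, which other tissues burn.

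All values are the authors' log2 signals, which ran from 0.44 to 13.55 over all probe sets, with array medians between 4.27 and 4.33. A difference of 1 on this scale is a doubling, and levels of different probe sets are not comparable with each other. Precision is limited by the 4 arrays per genotype. P-values set the difference of the genotypes against the spread between these cultures, and do not cover spread between clones. The Vwa8 probe set read 5.12, 5.22, 5.07 and 5.33 in the knockout arrays, against 8.95, 9.01, 8.91 and 8.95 in the wild-type arrays. This was a log2 fold change of -3.77 ± 0.0696 (SE). An exact two-sided permutation test gave p = 0.0286, the smallest possible with 4 against 4 arrays. The position of its probes relative to the edit is not stated, so a residual signal has no set meaning. Of 11 measured hepatocyte markers 10 were higher in the knockout and Ambp was lower, with a median log2 fold change of 0.73 (range -0.40 to 2.51), more than the median of the genes described here, and array means of 10.71 to 10.83 in knockout and 9.87 to 9.94 in wild-type arrays. Alb was among the small rises, averaging 13.07 in knockout and 12.84 in wild-type cells. All 9 measured markers of dividing cells were lower in the knockout, with array means of 4.99 to 5.18 in knockout and 6.84 to 7.01 in wild-type arrays. Of 7 measured cholangiocyte markers 2, Krt7 and Cftr, were lower and none was higher (array means 6.95 to 7.03 in knockout, 7.19 to 7.28 in wild type). Stellate cell and fibroblast markers (0 of 10 past the threshold, 9 of 10 at or below the median gene; array means 3.79 to 3.98 in knockout, 3.85 to 3.97 in wild type), macrophage markers (0 of 8, with 7 of 8 at or below the median gene; 3.43 to 3.64 in knockout, 3.45 to 3.61 in wild type) and endothelial markers (Flt1 higher out of 8, with 7 of 8 at or below the median gene; 3.88 to 3.95 in knockout, 3.66 to 3.87 in wild type) were near the array median or below it. The part of the hepatocyte, cholangiocyte and dividing-cell shifts in the results that follow was not tested.

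Most genes of the pathway were modestly higher without VWA8. Of the 32 measured genes 24 (75%) rose, none fell and 8 did not pass. Over all 22180 genes, 20.9% passed the same threshold, and 10.4% of all genes were higher and 10.4% lower in the knockout. The pathway's genes were bright, with 53.1% of the 32 at a mean over 9, against 7.31% of all genes. Brighter genes passed more often: of 3430 genes with a mean over 8, 22.9% were higher and 20.3% lower. The threshold was an adjusted p of 0.05 in limma, with the adjustment over all genes. The median log2 fold change over the 32 genes was 0.32, a 1.25-fold difference, against -0.003 over all genes. The rises were mostly small. They ran from 0.22 to 0.99, with 6 of at least 0.5, 14 between 0.3 and 0.5 and 4 under 0.3. None of the 32 reached a doubling, and 219 of all 2314 genes that rose (9.46%) did. Bulk RNA cannot tell fewer cells of a type from less RNA per cell.

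The spread between cultures was small beside these differences. The within-genotype SD had a median of 0.0697 over the 32 genes, against 0.141 over all genes, and ran from 0.0347 for Cpt1a to 0.212 for Acad12. Averaged over the 32 genes, the knockout arrays stood at 8.74 to 8.76 and the wild-type arrays at 8.43 to 8.47. In 25 genes all knockout arrays lay above all wild-type arrays, as they did in 12.9% of all genes. In 2 genes, Cpt1c and Acsl5, all knockout arrays lay below, as in 13.2% of all genes. The genotypes were apart in either direction in 26.1% of all genes. The 32 genes were brighter than most (53.1% at a mean over 9, against 7.31% of all genes). The part of brightness in the spread and in these shares was not tested.

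**Figure D1:**
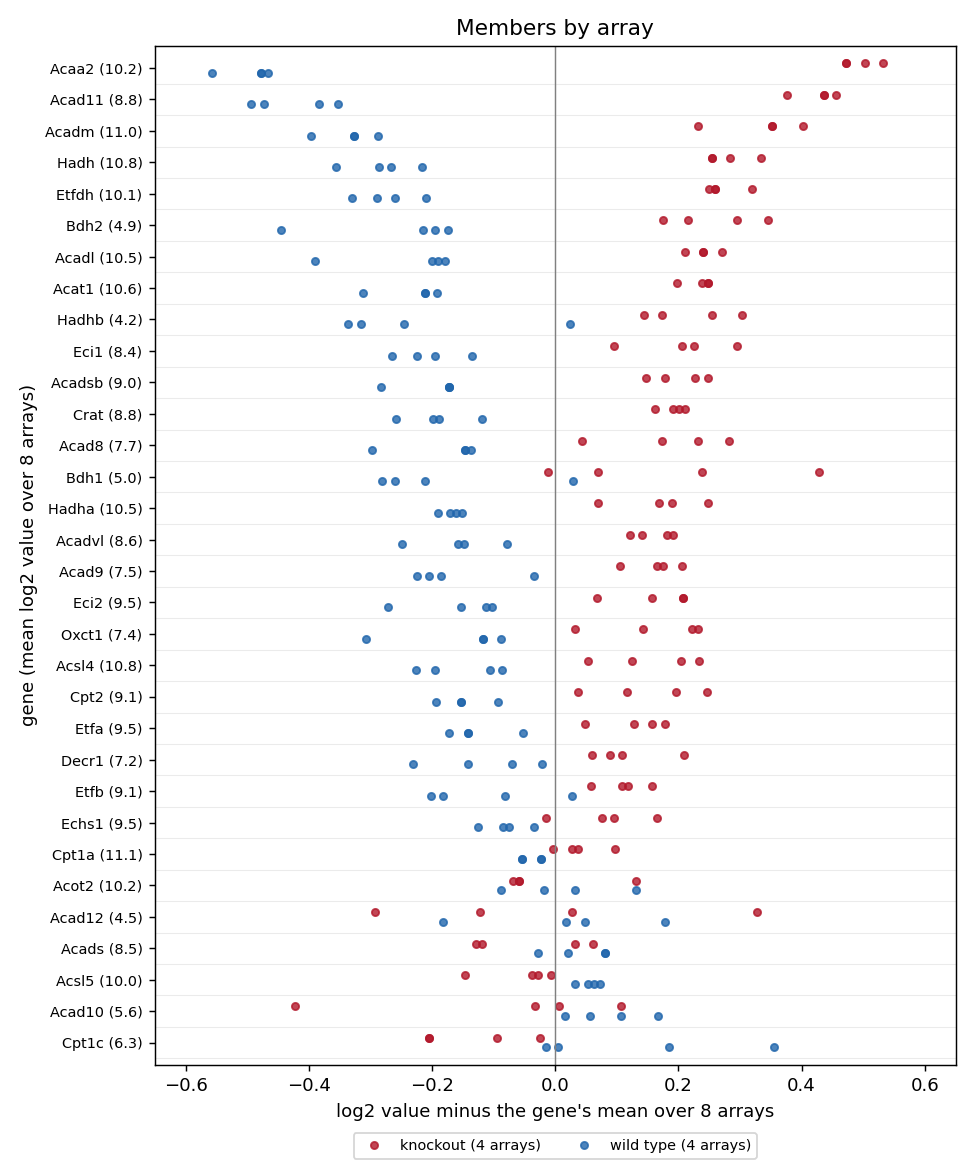
Each row is 1 gene, with the 4 knockout arrays (red, upper) and the 4 wild-type arrays (blue, lower) as log2 values minus that gene's mean over the 8 arrays, and that mean in parentheses. Rows are ordered by log2 fold change, from Acaa2 at 0.99 to Cpt1c at -0.26, and the colours separate fully with the knockout above in 25 rows.

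Activation and carnitine transfer, the entry to the pathway, gave a mixed picture. Acsl4, a synthetase with a preference for arachidonic acid, rose by 0.31 ± 0.0641 (SE, 4 arrays per genotype here and below). Its arrays read 10.83 to 11.01 in the knockout and 10.55 to 10.69 in the wild type. Acsl5, a synthetase of mitochondria and endoplasmic reticulum, read 9.98, 9.99, 9.87 and 10.01 in knockout arrays, against 10.05, 10.07, 10.09 and 10.08 in wild-type arrays. Every knockout array was below every wild-type array, yet the difference of -0.11 ± 0.0542 did not pass (adjusted p = 0.212).

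Cpt1a, the liver form of the transferase that puts the acyl group onto carnitine and so controls entry, read 11.16, 11.17, 11.23 and 11.13 in knockout arrays and 11.11, 11.11, 11.08 and 11.08 in wild-type arrays. The groups did not overlap, with every knockout array on top, but the gap was narrow. The log2 fold change of 0.08 ± 0.0518 (95% confidence interval -0.04 to 0.20) did not pass, with an adjusted p of 0.368, and with quantile normalization it was 0.00. Cpt2, which returns the acyl group to coenzyme A inside the mitochondrion, read 9.33, 9.25, 9.38 and 9.17 in the knockout and 9.04, 8.94, 8.98 and 8.98 in the wild type. It rose by 0.30 ± 0.0630 (adjusted p = 0.00918). Crat, the carnitine transferase for short acyl groups, rose by 0.39 ± 0.0538, with arrays at 8.95 to 9.0 in the knockout and 8.53 to 8.67 in the wild type. Its dimmer probe set was not used, and with the mean of both the rise was 0.27.

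The lowest log2 fold change of the list was that of Cpt1c, a brain form of the transferase with little activity in fatty acid oxidation. It read 6.11, 6.22, 6.11 and 6.29 in knockout arrays, against 6.67, 6.50, 6.30 and 6.32 in wild-type arrays. Wild-type arrays 3 and 4 lay just above the highest knockout array. The difference of -0.26 ± 0.0933 did not pass (adjusted p = 0.0824, and 0.0274 to 0.177 over the alternatives).

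Among the acyl-CoA dehydrogenases, the flavoenzymes of the opening step, 7 of 10 rose and none fell. Acad11, which acts on longer acyl chains, read 9.27, 9.29, 9.21 and 9.27 in the knockout and 8.48, 8.45, 8.34 and 8.36 in the wild type. Its rise of 0.85 ± 0.0568, or 1.81-fold, was the second largest of the list (adjusted p = 1.45e-05). The gap between the genotypes was several times the range within either.

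The medium-chain enzyme Acadm read 11.27, 11.39, 11.44 and 11.39 in knockout arrays, against 10.71, 10.75, 10.64 and 10.71 in wild-type arrays. It rose by 0.67 ± 0.0590, or 1.59-fold (adjusted p = 6.86e-05). Acadl, the long-chain enzyme of mouse tissues, read 10.71, 10.68, 10.71 and 10.74 in the knockout and 10.08, 10.29, 10.27 and 10.28 in the wild type, and rose by 0.48 ± 0.0634. Wild-type array 1 was the low one there, and the other wild-type arrays were still below every knockout array.

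The very-long-chain enzyme Acadvl read 8.69, 8.75, 8.76 and 8.71 in the knockout, against 8.49, 8.32, 8.42 and 8.41 in the wild type, and rose by 0.32 ± 0.0568. Acads, its short-chain relative, read 8.33, 8.49, 8.52 and 8.34 in the knockout, against 8.54, 8.43, 8.48 and 8.54 in the wild type. The groups overlapped, and the log2 fold change of -0.08 ± 0.0662 had a confidence interval of -0.23 to 0.07. Of these 4, the enzymes for medium, long and very long chains rose and the short-chain enzyme did not pass. A dependence on chain length was not tested. The direct comparison of Acadm with Acads, described below, did not pass (exact permutation test, adjusted p = 0.0857).

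Dehydrogenases that serve mainly other routes were also higher. Acadsb, of isoleucine breakdown, rose by 0.40 ± 0.0559, and Acad8, of valine breakdown, by 0.36 ± 0.0720. Acad9, which also helps to assemble respiratory complex I, rose by 0.32 ± 0.0622. Acad10, a close relative of Acad11, read 5.68, 5.54, 5.15 and 5.58 in knockout arrays and 5.68, 5.63, 5.59 and 5.74 in wild-type arrays. Knockout array 3 was the low one, and the log2 fold change of -0.17 ± 0.110 (adjusted p = 0.348) was -0.06 without it. Acad12, which lies near Acad10 on chromosome 5, was dim, at 4.23 to 4.85 in knockout and 4.34 to 4.70 in wild-type arrays, and stood at -0.03 ± 0.133.

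**Figure D2:**
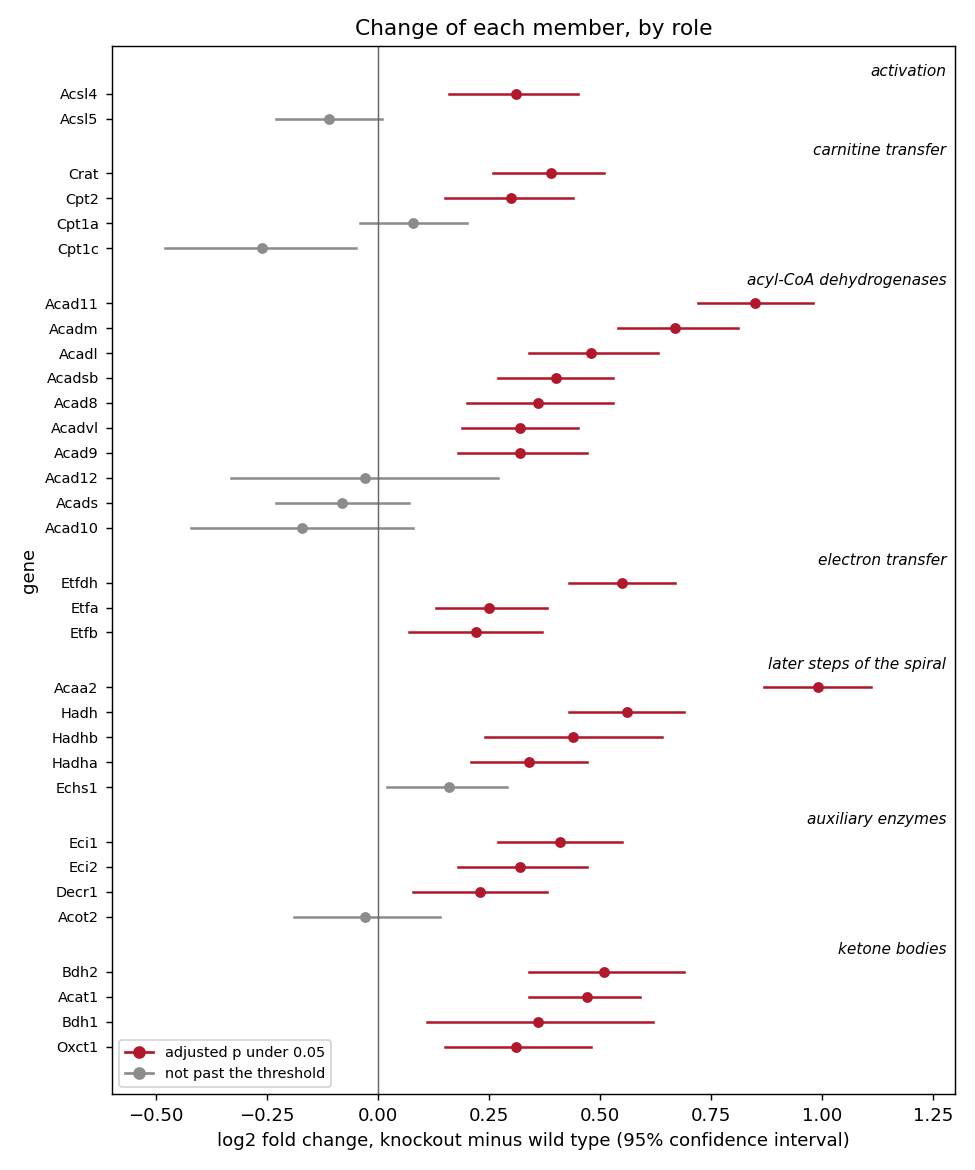
Log2 fold changes (knockout minus wild type, points) with 95% confidence intervals (lines) of the 32 genes, grouped by role. Red marks the 24 genes past the threshold, all to the right of 0, and grey the 8 that did not pass, among them Cpt1a at 0.08 and Acads at -0.08.

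The electron transfer genes that serve all these dehydrogenases rose as a group of 3 out of 3. Etfdh, the membrane enzyme that hands the electrons to ubiquinone, read 10.39, 10.39, 10.45 and 10.38 in the knockout and 9.84, 9.92, 9.87 and 9.80 in the wild type, a rise of 0.55 ± 0.0535 (adjusted p = 0.000129). Etfa and Etfb encode the subunits of the flavoprotein itself. Etfa read 9.66, 9.68, 9.63 and 9.55 in knockout arrays, against 9.36, 9.36, 9.33 and 9.45 in wild-type arrays, and rose by 0.25 ± 0.0569. Etfb read 9.20, 9.26, 9.30 and 9.25 in the knockout, against 9.17, 8.96, 8.94 and 9.06 in the wild type, and rose by 0.22 ± 0.0667. Wild-type array 1 came close to the knockout arrays for Etfb, whose adjusted p of 0.0455 was up to 0.119 over the alternatives. The call for Etfb was lost in 9 of 17 alternatives, among them leaving out any single array other than wild-type replicate 1.

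In the later steps of the spiral 4 of 5 genes rose. Acaa2, the mitochondrial thiolase that releases acetyl-CoA, read 10.71, 10.68, 10.65 and 10.65 in the knockout, against 9.71, 9.70, 9.62 and 9.70 in the wild type. This was the largest rise of the list, 0.99 ± 0.0519 or 1.98-fold (adjusted p = 4.28e-06), and it ran from 0.94 to 1.02 over the alternatives. Hadh, the hydroxyacyl-CoA dehydrogenase for shorter chains, read 11.08, 11.13, 11.05 and 11.05 in the knockout and 10.58, 10.44, 10.51 and 10.53 in the wild type, and rose by 0.56 ± 0.0561. Echs1, the enoyl-CoA hydratase for short chains, read 9.49 to 9.67 in the knockout and 9.38 to 9.47 in the wild type. The groups did not overlap, but the log2 fold change of 0.16 ± 0.0593 did not pass (adjusted p = 0.0973, and 0.0109 to 0.223 over the alternatives).

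Hadha and Hadhb encode the subunits of the trifunctional protein, which carries out the later steps on long chains at the inner membrane. Hadha read 10.55, 10.65, 10.73 and 10.67 in the knockout, against 10.33, 10.29, 10.31 and 10.32 in the wild type, and rose by 0.34 ± 0.0571. The Hadhb probe set read 4.46, 4.41, 4.30 and 4.33 in the knockout, against 4.18, 3.82, 3.91 and 3.84 in the wild type, and rose by 0.44 ± 0.0886, at a level below the median gene. Both separated the genotypes, and wild-type array 1 was the highest of its group for both.

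The pair is transcribed divergently from chromosome 5, where the starts of Hadha (minus strand, 30154980 in assembly GRCm38.p6) and Hadhb (plus strand, 30155253) have 272 bases between them. Their promoter windows, taken from 250 bases before to 50 bases after each start in RefSeq, overlap by 228 bases. The window of Hadha (chr5:30154931-30155230, minus strand, 5′ to 3′) is shown because it holds most of the stretch that both genes share, and none of the motifs described further on was found in it, so all of it is in lower case.
Hadha: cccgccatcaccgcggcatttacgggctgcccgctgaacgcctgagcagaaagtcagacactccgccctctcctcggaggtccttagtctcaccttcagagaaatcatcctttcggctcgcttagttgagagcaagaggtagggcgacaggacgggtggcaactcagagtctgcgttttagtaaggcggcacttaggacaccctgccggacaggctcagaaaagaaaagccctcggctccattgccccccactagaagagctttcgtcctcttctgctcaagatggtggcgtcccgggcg

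The auxiliary enzymes handle acyl chains whose double bonds stand in the wrong place, or release free fatty acid. Eci1, an enoyl-CoA isomerase, read 8.48, 8.61, 8.59 and 8.68 in the knockout, against 8.25, 8.12, 8.16 and 8.19 in the wild type, and rose by 0.41 ± 0.0624. Its counterpart Eci2 read 9.60, 9.69, 9.74 and 9.74 in the knockout, against 9.42, 9.43, 9.38 and 9.26 in the wild type, and rose by 0.32 ± 0.0642. No array of one genotype reached the other for either isomerase. Decr1, the dienoyl-CoA reductase, rose by 0.23 ± 0.0659 (adjusted p = 0.0379), a call lost in 10 of 17 alternatives, where the adjusted p was up to 0.102. Acot2, a mitochondrial acyl-CoA thioesterase with close paralogs that could share its probes, stood at -0.03 ± 0.0727, with arrays at 10.15 to 10.35 in the knockout and 10.13 to 10.35 in the wild type.

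All 4 ketone body genes on the list rose. Acat1, the thiolase that joins acetyl-CoA into acetoacetyl-CoA and also ends isoleucine breakdown, read 10.83, 10.87, 10.88 and 10.88 in the knockout, against 10.42, 10.32, 10.44 and 10.42 in the wild type, a rise of 0.47 ± 0.0540. Oxct1, the transferase with which tissues other than liver use ketone bodies, read 7.59, 7.48, 7.67 and 7.68 in the knockout and 7.14, 7.33, 7.36 and 7.33 in the wild type, and rose by 0.31 ± 0.0736. Both sets of arrays were apart, by a wide gap for Acat1 and a narrow one for Oxct1.

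Bdh1, the mitochondrial enzyme that interconverts acetoacetate and hydroxybutyrate, read 5.42, 5.23, 4.98 and 5.06 in knockout arrays, against 5.02, 4.71, 4.73 and 4.78 in wild-type arrays. The groups overlapped through wild-type array 1 and knockout array 3. Its rise of 0.36 ± 0.111 had an adjusted p of 0.0487, and the call was lost in 6 of 17 alternatives, where single arrays other than knockout replicate 3 and wild-type replicate 1 were left out (adjusted p up to 0.117). Bdh2, a cytosolic relative, read 5.20, 5.15, 5.07 and 5.03 in the knockout, against 4.68, 4.41, 4.66 and 4.64 in the wild type, and rose by 0.51 ± 0.0780 with no overlap. The signals of both were dim.

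Partners in a complex, isoforms and enzymes of neighbouring steps were compared directly, as the per-array difference of their log2 values, in 9 pairs. A further pair held Acsl1 and was not analysed here. In exact two-sided permutation tests 3 pairs reached p = 0.0286, the smallest value possible with 4 against 4 arrays. Adjusted over the 9 pairs these were 0.0857, so no pair passed. The change of Acadm exceeded that of Acads by 0.75 ± 0.0497, that of Acad11 exceeded that of Acad10 by 1.02 ± 0.110, and the value for Cpt1a minus Cpt2 was -0.22 ± 0.0358. In each of these the 4 knockout arrays lay apart from the 4 wild-type arrays. The difference was -0.10 ± 0.105 for Hadha minus Hadhb (exact p = 0.343) and 0.03 ± 0.0633 for Etfa minus Etfb (exact p = 0.629), and the arrays of the genotypes overlapped in both. The Hadhb probe set was dim, so its change may be understated and the first of these values says little about the subunits. The remaining differences were 0.16 ± 0.0823 for Acadl minus Acadvl, -0.09 ± 0.0537 for Eci2 minus Eci1, -0.15 ± 0.0919 for Bdh1 minus Bdh2 and 0.15 ± 0.0751 for Acat1 minus Oxct1.

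**Figure D3:**
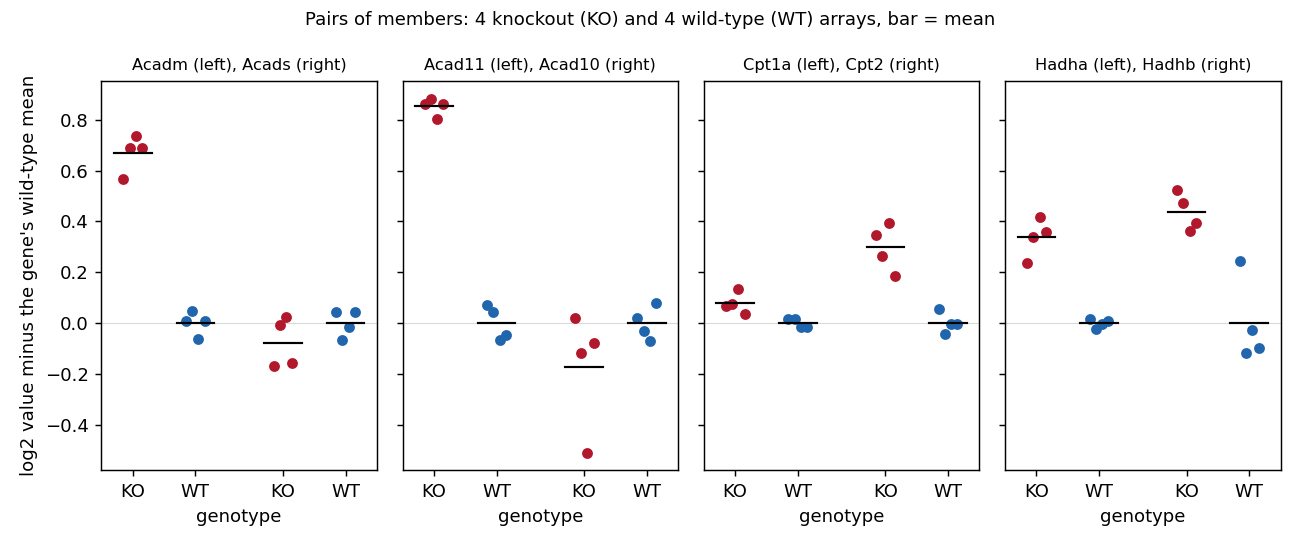
Log2 values of 4 pairs of genes, each minus the gene's own wild-type mean, in the 4 knockout (KO, red) and 4 wild-type (WT, blue) arrays, with bars at the group means. Acadm and Acad11 rose by 0.67 and 0.85 beside partners at -0.08 and -0.17, whereas Hadha and Hadhb rose by 0.34 and 0.44.

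The rises were also set beside the position of the genes on the chromosomes. All 5 measured genes on chromosome 3 rose (Acadm, Hadh, Etfdh, Bdh2 and Acad9). There the median log2 fold change of the 524 genes brighter than the median gene was 0.21, and 46.4% of them were higher in the knockout. On chromosome 5, where the same median was -0.14 and 6.22% were higher, 2 of 5 rose (Hadha and Hadhb, against Acads, Acad10 and Acad12). On chromosome 9, where the median was -0.02 and 14.6% were higher, all 4 rose. Outside chromosome 3, 19 of 27 genes rose. On the chromosomes of these 27, the share of brighter genes that were higher ran from 6.22% (chromosome 5) to 42.1% (chromosome 1). On chromosomes whose median was at or below 0, 15 of 21 genes rose, beside shares of 6.22% (chromosome 5) to 14.6% (chromosome 9). As an alternative, the median change of each gene's neighbours was subtracted from its own. The neighbours were the closest 30 on either side that were brighter than the median gene. The part of position itself in the result was not tested. With this subtraction 22 genes were higher, 21 of them among the 24. Acadl stood at 0.20 (adjusted p = 0.0594), Acad9 at 0.08 (adjusted p = 0.415) and Decr1 at 0.17 (adjusted p = 0.102), and these calls were lost. Echs1 stood at 0.25 and passed (adjusted p = 0.0186). Acadm was at 0.43, Hadh at 0.34, Bdh2 at 0.28, Crat at 0.23 and Acadvl at 0.21, each still past the threshold.

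**Figure D4:**
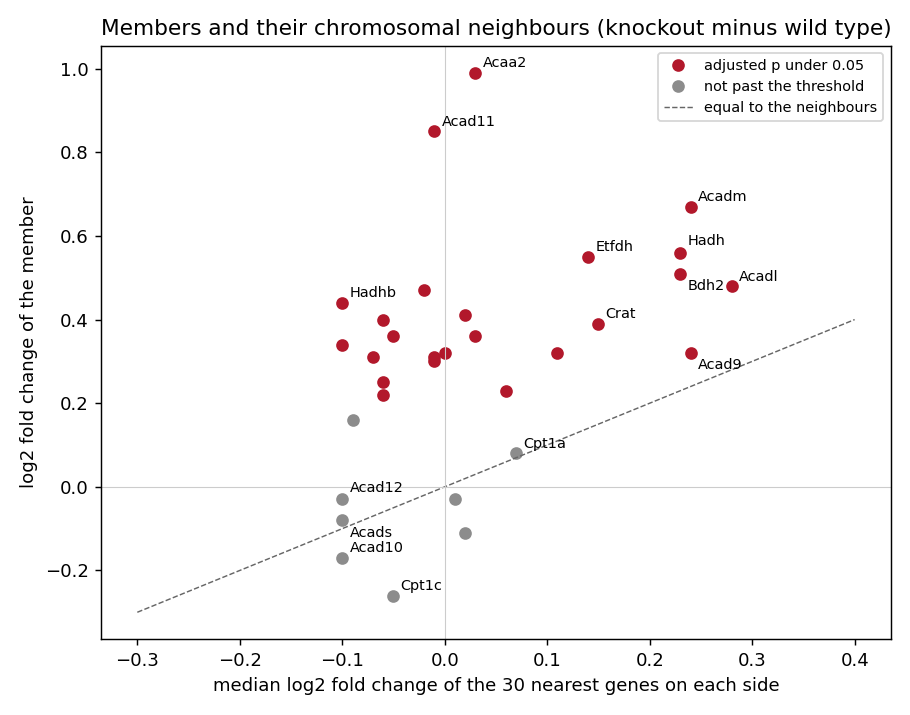
Log2 fold change of each of the 32 genes (y axis) against the median log2 fold change of its neighbours, the closest 30 brighter genes on either side (x axis), knockout minus wild type; the dashed line marks equality. In 28 of 32 genes the change exceeded that of the neighbours, Acaa2 and Acad11 standing highest over neighbours at 0.03 and -0.01, and Acad9 lying near the line.

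Promoter windows of 29 of the 35 genes, Acsl1 among them, were found in RefSeq (GRCm38.p6), 31 windows in all. Several nuclear receptors that act on these genes bind the half-site AGGTCA, PPARA with RXR as a direct repeat. The half-site was present on either strand in 5 of the 29 genes (17.2%, Acadm, Acadvl, Cpt1a, Cpt1c and Echs1), against 18.1% of 27025 genes. Longer forms that contain it, the direct repeat with 1 base in between and the ERR element TCAAGGTCA, were in none of the 29, against 0.0481% and 0.466% of all genes. At such low shares none was likely in 29 genes, and only exact matches within the windows were sought, so their absence says little. GCATGCG, the core of the element of nuclear respiratory factor 1, was in 5 of 29 (17.2%, Acadm, Etfdh, Etfa, Acad10 and Acad12), against 4.01% of all genes. The median GC content was 60.7% in these windows and 52.7% in all, and its part in the difference was not tested.

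The 5 stretches that hold GCATGCG are shown because they come from genes that rose and from genes that did not pass. Capitals mark the core, which in all but Etfa is on both strands in overlap, with 24 bases on each side. All are on the minus strand and written 5′ to 3′. They lie at chr3:153944771-153944826 (Acadm), chr3:79628863-79628918 (Etfdh), chr9:55512317-55512371 (Etfa), chr5:121660486-121660541 (Acad10) and chr5:121618950-121619005 (Acad12).
Acadm: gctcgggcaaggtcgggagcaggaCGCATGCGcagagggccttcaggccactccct
Etfdh: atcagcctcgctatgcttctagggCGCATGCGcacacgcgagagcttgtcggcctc
Etfa: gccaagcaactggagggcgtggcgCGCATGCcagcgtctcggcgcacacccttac
Acad10: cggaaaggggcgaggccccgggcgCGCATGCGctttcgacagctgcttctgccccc
Acad12: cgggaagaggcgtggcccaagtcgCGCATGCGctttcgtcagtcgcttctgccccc

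The capitals start 159, 127, 104, 7 and 43 bases before the gene's start in that order. Acad10 and Acad12, which lie near each other, have 47 of these 56 bases in common. Acadm, Etfdh and Etfa rose, by 0.67, 0.55 and 0.25, and Acad10 and Acad12 did not pass, so the core was found on both sides of the threshold.

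Genes around the pathway that are not on the list of 35 were read from further lists. Of 36 measured genes of fatty acid uptake, carnitine handling and acyl-CoA supply, 14 were higher and 3 lower, with a median log2 fold change of 0.16. Fabp1, the liver fatty acid binding protein, rose by 1.27 ± 0.0820, the fatty acid transporter Cd36 by 1.00 ± 0.0838 and the cytosolic acetyl-CoA hydrolase Acot12 by 0.79 ± 0.0680. Slc25a20, which carries acylcarnitines across the inner membrane between Cpt1a and Cpt2, read 8.99, 8.97, 8.96 and 9.0 in the knockout, against 8.33, 8.46, 8.31 and 8.35 in the wild type. It rose by 0.62 ± 0.0550. The genes that fell were Fabp5 at -0.61 ± 0.0808, Acot9 at -0.72 ± 0.115 and Acot7 at -0.42 ± 0.0847. Fabp5 had 4 probe sets, and its value ran from -0.74 to -0.54 over the alternatives.

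Of 22 other enzymes of beta-oxidation and related acyl-CoA breakdown, peroxisomal and propionate enzymes included, 15 were higher and none lower, with a median of 0.45. Acat3, an acetyl-CoA acetyltransferase, rose by 1.63 ± 0.0787, Echdc2, of the enoyl-CoA hydratase family, by 1.59 ± 0.0801, Pecr, a peroxisomal enoyl-CoA reductase, by 1.04 ± 0.0888 and Pcca, a subunit of propionyl-CoA carboxylase, by 0.66 ± 0.0506. Acat3, Echdc2 and Pecr exceeded the largest measured change on the list of 35, that of Acaa2. Among 7 further ketone body genes the transporters Slc16a1 and Slc16a6 rose, by 0.66 ± 0.0578 and 0.79 ± 0.0730, and Slc16a7, of the same family, fell, at -0.41 ± 0.0886. With the change of neighbouring genes subtracted, Slc16a1 was at 0.40, past the threshold, and Slc16a7 at -0.22, not past it (adjusted p = 0.12).

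Of 34 measured regulators of the pathway 11 were higher and 5 lower, with a median of 0.09, beside 10.4% of all genes in each direction. Ppara, the nuclear receptor that switches on fatty acid oxidation in fasting liver, read 7.32, 7.31, 7.13 and 7.35 in the knockout, against 6.93, 6.86, 6.89 and 6.96 in the wild type, and rose by 0.37 ± 0.0653. Its partner Rxra rose by 0.76 ± 0.0678 and Creb3l3, a liver transcription factor of the fasting response, by 1.06 ± 0.0607. Klf15 rose by 0.83 ± 0.0814 and Foxo1 by 0.73 ± 0.0754. Foxo1 had 2 probe sets, and its rise ran from 0.44 to 0.78 over the alternatives. Ppargc1a, a coactivator of these receptors, stood at 0.09 ± 0.0705 (adjusted p = 0.456), and Mlycd, which removes the malonyl-CoA that inhibits Cpt1a, at 0.10 ± 0.0634 (adjusted p = 0.348). The AMP-activated kinase subunits Prkaa2 and Prkab1 fell, at -0.32 ± 0.0743 and -0.25 ± 0.0655, as did the deacetylase Sirt1 at -0.28 ± 0.0752 and the nuclear respiratory factor gene Nrf1 at -0.25 ± 0.0647. Subtracting the change of neighbouring genes left Prkab1 at -0.14 (adjusted p = 0.18), Sirt1 at -0.11 (adjusted p = 0.378) and Nrf1 at -0.21 (adjusted p = 0.0518), no longer past the threshold. Foxo1, at 0.48, and Ppargc1a, at 0.24 (adjusted p = 0.046), were past it with this subtraction.

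Of 24 other known PPARA targets, 9 were higher and 2 lower, with a median of 0.16. The fatty acid hydroxylases Cyp4a12a and Cyp4a14 rose by 1.43 ± 0.149 and 1.42 ± 0.0822, Pdk4, which shuts off pyruvate entry, by 1.09 ± 0.0784, and Pex11a, of peroxisome division, by 0.65 ± 0.0813. Vnn1, a pantetheinase, fell, at -0.76 ± 0.0977, as did Plin2, which coats lipid droplets, at -0.33 ± 0.0644. The shares of each list that were higher or lower can be read beside the 10.4% over all genes in either direction, and they were not tested.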

How the data were processed

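Total RNA of 8 AML12 cultures was labelled with biotin and hybridised to Affymetrix mouse arrays, per the labels' protocols. The authors deposited 1 log2 value per probe set and array (41345 probe sets). The log2 scale was read from the values, and how probe signals were corrected, normalized and summarised is not stated in the sources used here. No further normalization was added. Genes were named from the platform annotation: 23521 probe sets had 1 gene symbol, 1814 several and 16010 none listed. Genotypes were compared with lmFit and eBayes in limma 3.58.1 (R 4.3.3) over all 22180 genes and 8 arrays, with two-sided p-values, Benjamini-Hochberg adjustment and a threshold of 0.05. The fit was tested on simulated data. Chromosomes came from a RefSeq gene table (GRCm38.p6), which 21988 genes matched by Entrez identifier. The members, lists and tests were chosen with earlier results of these data known. Text names Vwa8, all members, Slc25a20, Ppara, Ppargc1a and Mlycd, and up to 4 genes per direction and pathway list by smallest adjusted p. Alternatives were quantile normalization, a replicate block, an intensity trend with robust variances, median centring, probe set means, array weights, dropping the dimmest 25% or 50% of genes, subtraction of neighbouring genes and leaving out each array. Figures were drawn with matplotlib 3.10.9.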

Additional observations from a re-analysis of the deposited data

Results flagged for a closer look

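Among 128 groups of 4 arrays screened, 10 had 1 array whose gap to the nearest other took up more than 0.829 of the group's range (Dixon's 95% critical value), and chance gives about 1 in 20 groups. In the wild type, replicate 1 was low for Acadl (10.08, others 10.27 to 10.29), Acadsb (8.76, others 8.87) and Oxct1 (7.14, others 7.33 to 7.36), replicate 2 for Bdh2 (4.41, others 4.64 to 4.68) and Acat1 (10.32, others 10.42 to 10.44), and replicate 4 for Acad8 (7.44, others 7.59 to 7.60). In the knockout, replicate 3 was low for Acsl5 (9.87, others 9.98 to 10.01) and Ppara (7.13, others 7.31 to 7.35) and high for Nrf1 (6.34, others 6.21 to 6.22), and replicate 4 was high for Acot2 (10.35, others 10.15 to 10.16).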

How the results depend on the processing

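The count of members higher in the knockout stayed between 21 and 25 over the 17 alternatives (24 as reported), and their median log2 fold change between 0.31 and 0.35. Of the 24 genes, 18 kept their call in every alternative in which they were tested, 17 for each but Hadhb, which was tested in 16. The exceptions were Acadl and Acad9 (neighbouring genes subtracted), Etfa (replicate block), Etfb, Decr1 and Bdh1. With the replicate number as a block 21 members and 3717 of all genes passed, and 4 regulators that had fallen (Prkaa2, Prkab1, Sirt1 and Nrf1) did not. Arrays with the same number did not deviate together (correlations from -0.002 to 0.059). No member was lower as reported, 2 were (Cpt1c and Acsl5) with an intensity trend and robust variances, and 1 (Cpt1c) without the dimmest 50% of genes; fewer genes are tested in that last setting. No pair of members passed under quantile normalization, median centring or probe set means, nor with any single array left out (smallest adjusted p from 0.0643 to 0.0857). The smallest possible exact p left these tests little room to pass, so this says little about stability. Etfa minus Etfb was -0.02 to 0.06 with single arrays left out. Genes near 0 that never passed changed sign. Cpt1a was 0.00 with quantile normalization, Acads 0.02 with neighbouring genes subtracted, and Acot2 0.00 with median centring and -0.07 to 0.01 with single arrays left out. Acad12 was 0.01 with quantile normalization, 0.00 with median centring and with array weights, 0.07 with neighbouring genes subtracted and -0.14 to 0.06 with single arrays left out. The cause was not tested. Dim probe sets (Hadhb, Bdh1, Bdh2, Acad10, Acad12) can understate changes.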
